A study of Mus musculus with 11 samples.

Results

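Laminins, nidogens, perlecan and agrin are the proteins that, with collagen IV, make up basement membranes. The 10 genes described here encode 3 laminin alpha chains (Lama2, Lama4 and Lama5), 2 beta chains (Lamb1 and Lamb2), 1 gamma chain (Lamc1), both nidogens (Nid1 and Nid2), perlecan (Hspg2) and agrin (Agrn). They were taken by name from the 19962 genes of the deposited count table, and each is read by 1 probe. The study profiled cells of the periostin lineage in the naive mouse mammary gland, marked by the green reporter ZsGreen in periostin lineage tracing mice. Transcripts were counted with GeoMx digital spatial profiling, in which ultraviolet light releases barcoded probes from a chosen area of a section for sequencing. Regions were picked by stains for podoplanin (Pdpn), the marker used for lymphatic vessels, and smooth muscle actin (SMA), the marker used for blood vessels and ducts, and the ZsGreen-positive cells inside each region were collected. There were 6 Pdpn-adjacent regions (2, 3, 4, 7, 8 and 11) and 5 SMA-adjacent regions (1, 5, 6, 9 and 10), all from the fixed frozen glands of 3 mice. The labels give neither the age or sex of the mice nor the driver of the lineage reporter, and all regions share the same tissue and reporter. Both groups have more regions than the study had mice, so some regions share a mouse, and every p-value below, which treats regions as independent, can be too small.

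A laminin is a trimer of an alpha, a beta and a gamma chain. Many, though not all, are cross-shaped and polymerise on the cell surface, where integrins and dystroglycan hold them through the alpha chain. Nidogens bind the laminin gamma-1 chain and collagen IV and so link both networks, and perlecan and agrin are large proteins with heparan sulfate chains that tie the sheet to receptors and store growth factors. In the mammary gland such sheets surround ducts, blood vessels, nerves, muscle fibres and adipocytes, and stromal cells contribute several of their components.

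The regions differed in depth. Pdpn-adjacent regions held 22757 to 2271664 counts over all endogenous probes and SMA-adjacent regions 760761 to 3086323. Regions 2, 3 and 11, all Pdpn-adjacent, held under 100000 counts, so the groups compare 3 against 5 regions where these are left out. Fibroblast markers summed to 263 to 1909 CPM (counts scaled to a common library size after TMM adjustment) in Pdpn-adjacent and 1453 to 3722 CPM in SMA-adjacent regions. Lymphatic endothelial markers were near background, with at most 1 of 6 above the detection floor, set on the log2 scale at 2 SDs over the mean negative probe, in any Pdpn-adjacent region and 0 of 6 in every SMA-adjacent region. Postn, the lineage gene, read 1.90 ± 1.23 times background (SD, n = 6) in Pdpn-adjacent regions, against 2.82 ± 1.39 times (SD, n = 5) in SMA-adjacent regions. The Pdpn probe read 1.10 ± 0.515 times background (SD, n = 6) in Pdpn-adjacent regions, against 1.72 ± 0.159 times (SD, n = 5) in SMA-adjacent regions, and so gives no check of the label.

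Most of the 10 genes were read at a low multiple of background, the geometric mean of the 210 negative-control probes of the same region. Nid1 and Lama4 were the most often detected: each stood above the floor in 3 of 6 Pdpn-adjacent and 5 of 5 SMA-adjacent regions. Hspg2 did so in 2 of 6 and 4 of 5, Agrn in 3 of 6 and 3 of 5, and Lamb2 in 2 of 6 and 3 of 5. Lama5 and Lamb1 were each above it in 0 of 6 and 3 of 5, Lamc1 in 0 of 6 and 2 of 5, Lama2 in 0 of 6 and 1 of 5, and Nid2 in 2 of 6 and 0 of 5. The most genes passed in Pdpn-adjacent region 8, with 6 of 10 above the floor against 10.2% of all probes, and in SMA-adjacent region 10, with 9 of 10 against 19.2% of all probes. In region 2 the raw count was 1, the lowest value in the table, for 9 of the 10 genes, and in region 11 for 6. A count of 1 stands at 37.5 CPM in region 2, 12.3 CPM in region 3 and 34.3 CPM in region 11, so CPM values of the genes there say little about expression. Agrn in region 2 and Lama4 and Nid2 in region 11 passed a floor of less than 2 counts with a raw count of 2. Probes differ in how well they bind, so levels are compared between regions for 1 gene and not between genes.

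**Figure D1:**
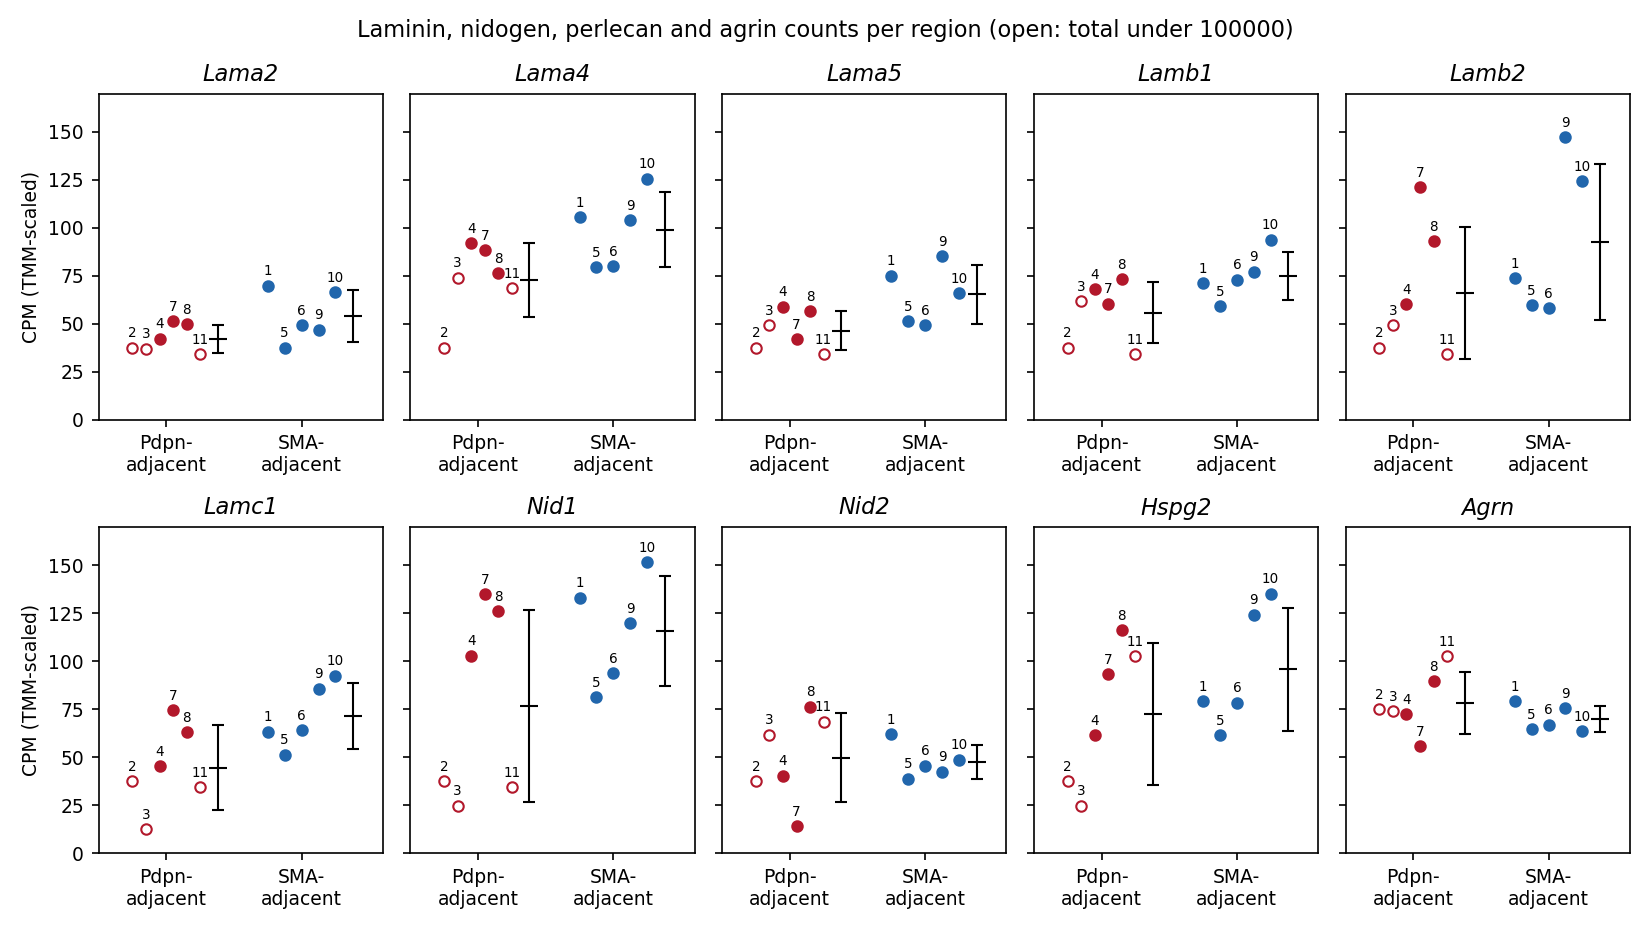
CPM of each gene in every region, with region numbers beside the points and open circles for the 3 regions under 100000 counts; the bar gives the group mean and SD (n = 6 Pdpn-adjacent, n = 5 SMA-adjacent). The groups overlap for all 10 genes, and the lowest Pdpn-adjacent point of each of the 6 laminin genes is an open circle.

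Lama4 encodes the alpha chain of laminins found in the basement membranes of blood vessels, adipocytes and other mesenchymal cells. Its level in Pdpn-adjacent regions had a lowest value of 37.5, a median of 75.2 and a highest value of 92.1 CPM, against 105, 79.6, 79.9, 104 and 126 CPM in SMA-adjacent regions 1, 5, 6, 9 and 10. Regions 4 and 7 lay inside the SMA-adjacent range, and the other 4 Pdpn-adjacent regions lay below it. The group means were 72.8 ± 19.5 CPM (SD, n = 6) and 98.9 ± 19.5 CPM (SD, n = 5), and the fitted log2 fold change was -0.24 ± 0.27 SE (edgeR adjusted p = 1.00). The exact two-sided permutation test of log2 CPM, which weights regions equally, gave p = 0.0563 and an adjusted p of 0.637 over all probes. Some of the regions compared share a mouse. Regions in bulk hold an unknown number of cells, so fewer cells of a type and less RNA per cell cannot be told apart here or below. The Lama4 probe lies inside the gene on GRCm38.p6 at chromosome 10, 39026653 to 39026688.

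Lama5 encodes the alpha chain of epithelial and endothelial laminins. It had values of 34.3 (lowest), 45.6 (median) and 58.9 CPM (highest) in Pdpn-adjacent regions, against 75.1, 51.3, 49.1, 85.3 and 65.8 CPM in SMA-adjacent regions 1, 5, 6, 9 and 10. It averaged 46.4 ± 10.1 CPM (SD, n = 6) and 65.3 ± 15.5 CPM (SD, n = 5). The lowest 3 Pdpn-adjacent regions (2, 7 and 11) were under the whole SMA-adjacent range. Lama5 was the 1 member with an unadjusted exact permutation p under 0.05 (p = 0.0433, adjusted p = 0.629 over all probes), and its fitted log2 fold change was -0.25 ± 0.20 SE (edgeR adjusted p = 0.961). Of all probes, 7.91% had an exact permutation p under 0.05. Without regions 2, 3 and 11 its exact permutation p was 0.250. Lama2, the alpha chain of the laminin of muscle fibres and Schwann cells, ran from 34.3 through a median of 39.9 to 51.2 CPM in Pdpn-adjacent regions, against 69.9, 37.5, 49.1, 47.0 and 66.5 CPM in SMA-adjacent regions 1, 5, 6, 9 and 10. It averaged 42.0 ± 7.08 and 54.0 ± 13.7 CPM (SD, n = 6 and n = 5), and edgeR fitted a log2 fold change of -0.22 ± 0.19 SE with an adjusted p of 0.985. In SMA-adjacent region 5 Lama2 stood at 1.10 times background, and of the 11 regions only SMA-adjacent region 10, at 2.28 times, exceeded the floor. The p-values again treat regions that share a mouse as independent. On GRCm38.p6 the Lama5 probe lies inside its gene at chromosome 2, 180207020 to 180207063, and the Lama2 probe at chromosome 10, 27467325 to 27467366.

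Lamc1 encodes the gamma-1 chain, the partner of most laminin trimers and the site that nidogens bind. Of the 10 genes it had the fitted difference farthest from 0, a log2 fold change of -0.50 ± 0.23 SE (edgeR unadjusted p = 0.0366, adjusted p = 0.779), and it was the only 1 with an unadjusted edgeR p under 0.05. Its level had a lowest value of 12.3, a median of 41.4 and a highest value of 74.5 CPM in Pdpn-adjacent regions, against 63.3, 51.3, 64.0, 85.7 and 92.4 CPM in SMA-adjacent regions 1, 5, 6, 9 and 10. In 4 of the 6 Pdpn-adjacent regions it lay below every SMA-adjacent one, and in 3 of those 4 (regions 2, 3 and 11) the raw count was 1. Region 4, the fourth, held a raw count of 105, which is 45.2 CPM with an exact Poisson 95% interval of 37.0 to 54.7 CPM for counting error alone. Regions 7 and 8, at 74.5 and 63.1 CPM, lay inside the SMA-adjacent range. In the 8 regions of at least 100000 counts Lamc1 averaged 60.9 ± 14.8 CPM (SD, n = 3) and 71.3 ± 17.1 CPM (SD, n = 5; exact permutation p = 0.411). As regions share mice, those p-values can be too small. The probe lies inside the gene at chromosome 1, 153262563 to 153262602, on GRCm38.p6.

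Lamb2, the beta-2 chain of laminins in vascular smooth muscle, kidney and neuromuscular basement membranes, varied more among regions of the same group than between the groups. It had 37.5, 49.4, 60.2, 121, 93.0 and 34.3 CPM in Pdpn-adjacent regions 2, 3, 4, 7, 8 and 11, against 73.8, 59.6, 58.1, 147 and 124 CPM in SMA-adjacent regions 1, 5, 6, 9 and 10. Regions 9, 10, 7 and 8 thus stood above the other 7, and they come from both groups. Within the SMA-adjacent group the highest value was 2.54 times the lowest, while the group means of 65.9 ± 34.3 CPM (SD, n = 6) and 92.6 ± 40.7 CPM (SD, n = 5) had a ratio of 0.712. The edgeR log2 fold change was -0.29 ± 0.29 SE with an adjusted p of 1.00, and limma-voom gave 0.08, the opposite sign. Without regions 2, 3 and 11 the means were 91.4 ± 30.4 CPM (SD, n = 3) and 92.6 ± 40.7 CPM (SD, n = 5). Lamb1, the more widely used beta-1 chain, had a narrower spread, from 34.3 through a median of 61.1 to 73.1 CPM in Pdpn-adjacent regions, against 71.2, 59.0, 72.9, 77.1 and 93.9 CPM in SMA-adjacent regions 1, 5, 6, 9 and 10. Its log2 fold change was -0.18 ± 0.19 SE (edgeR adjusted p = 1.00). Shared mice can make these p-values too small. On GRCm38.p6 the Lamb2 probe is at chromosome 9, 108481365 to 108481404, and the Lamb1 probe at chromosome 12, 31269119 to 31269162, each inside its gene.

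Nid1 encodes nidogen-1, which links laminin to collagen IV. It had 102.8, 135 and 126 CPM in Pdpn-adjacent regions 4, 7 and 8, against 133, 81.1, 93.8, 120 and 152 CPM in SMA-adjacent regions 1, 5, 6, 9 and 10. The other 3 Pdpn-adjacent regions, 2, 3 and 11, stood at 37.5, 24.7 and 34.3 CPM, from raw counts of 1, 2 and 1. All 3 of the deeper Pdpn-adjacent values lay inside the SMA-adjacent range, and all 3 shallow values lay below it. The sign of the difference turned on those shallow regions: over 11 regions the means were 76.8 ± 50.2 CPM (SD, n = 6) and 116 ± 28.6 CPM (SD, n = 5), and edgeR put the log2 fold change at -0.20 ± 0.27 SE with an adjusted p of 1.00. Over 8 regions they were 121 ± 16.6 CPM (SD, n = 3) and 116 ± 28.6 CPM (SD, n = 5), with a log2 fold change of 0.04 (edgeR adjusted p = 1.00). Some regions share a mouse in both versions. The probe lies inside Nid1 on GRCm38.p6 at chromosome 13, 13468358 to 13468393.

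Nid2 encodes nidogen-2, the second member of the family. It was close to background in SMA-adjacent regions, at 62.0, 38.7, 45.7, 42.5 and 48.8 CPM in regions 1, 5, 6, 9 and 10, or 1.13 to 2.08 times background. Pdpn-adjacent regions spread on both sides of these values, with a lowest value of 13.97, a median of 51.1 and a highest value of 76.4 CPM. The lowest was region 7 with a raw count of 3 (exact Poisson 95% interval 2.88 to 40.8 CPM) and the highest was region 8 with 23 (48.4 to 115 CPM). These intervals cover counting error alone, and those 2 regions were singled out after their values were seen. Between the groups the log2 fold change was -0.03 ± 0.21 SE (edgeR adjusted p = 1.00), and its sign depended on which region was left out. That p-value carries the same limit from shared mice. On GRCm38.p6 the Nid2 probe is at chromosome 14, 19768358 to 19768393, inside its gene.

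Hspg2 encodes perlecan, the heparan sulfate proteoglycan of most vascular and epithelial basement membranes. It had 37.5, 24.7, 61.5, 93.1, 116 and 103 CPM in Pdpn-adjacent regions 2, 3, 4, 7, 8 and 11, against 79.1, 61.5, 78.4, 124 and 135 CPM in SMA-adjacent regions 1, 5, 6, 9 and 10. Regions 8, 9 and 10 were the highest of those with at least 100000 counts, and regions 4 and 5 the lowest of those. The value of region 11 rests on a raw count of 3, with an exact Poisson 95% interval of 21.2 to 300.4 CPM. The means were 72.7 ± 37.1 CPM (SD, n = 6) and 95.7 ± 32.2 CPM (SD, n = 5), and the edgeR log2 fold change, -0.31 ± 0.27 SE with an adjusted p of 0.984, was 0.05 with limma-voom. Over the 8 deeper regions they were 90.3 ± 27.5 CPM (SD, n = 3) and 95.7 ± 32.2 CPM (SD, n = 5), against which the SMA-adjacent regions alone spanned 2.20 times from lowest to highest.

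Agrn encodes agrin, which binds laminin and, at the nerve-muscle contact, clusters acetylcholine receptors. Among the 10 genes it was the 1 with a fitted difference above 0, where edgeR gave a log2 fold change of 0.10 ± 0.17 SE with an adjusted p of 1.00. It had 75.1, 74.1, 72.3, 55.9, 89.7 and 103 CPM in Pdpn-adjacent regions 2, 3, 4, 7, 8 and 11, against 79.1, 64.5, 67.0, 75.7 and 63.6 CPM in SMA-adjacent regions 1, 5, 6, 9 and 10. The values of regions 2, 3 and 11 rest on raw counts of 2, 6 and 3. For region 11 the exact Poisson 95% interval was 21.2 to 300.4 CPM. In CPM, Agrn was the steadiest of the 10 within the SMA-adjacent group, where its highest value was 1.24 times its lowest. With the mean negative-probe count subtracted and the rest rescaled to CPM, it was not. That ratio was then 1.73 for Agrn, against 1.64 for Nid1, 1.66 for Lama4 and 1.68 for Lamb1, and was larger for the other genes. Group means were 78.3 ± 16.1 CPM (SD, n = 6) and 70.0 ± 6.98 CPM (SD, n = 5). Their exact permutation p was 0.377, or 0.867 when adjusted over all probes. Over the 8 deeper regions the Agrn means were 72.6 ± 16.9 CPM (SD, n = 3) and 70.0 ± 6.98 CPM (SD, n = 5; exact permutation p = 0.893). The p-values for both proteoglycan genes can be too small because of shared mice. Both probes are on chromosome 4 of GRCm38.p6, Hspg2 at 137508359 to 137508394 and Agrn at 156177007 to 156177041, each inside its gene.

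Between the groups, no member passed the threshold: all 10 were tested, and 0 were lower and 0 higher at an edgeR adjusted p under 0.05. Over all probes 0.00% were called lower and 0.0100% higher, so the fit made almost no calls of any kind. At an unadjusted edgeR p under 0.05 there was 1 member, Lamc1, which was lower, against 3.19% of all probes lower and 6.03% in either direction. The log2 fold change was below 0 for 9 of the 10 genes, against 48.8% of all probes, with a median of -0.23 for the members and 0.01 for all probes. By unweighted means of CPM, 8 of the 10 were lower in Pdpn-adjacent regions, both over 11 regions and over the 8 deeper ones, where 49.0% of all probes were. These were not the same genes: the exceptions were Nid2 and Agrn over 11 regions, and Nid1 and Agrn over the 8. With background subtracted over the 8, Lamb2, Nid1, Nid2 and Agrn were higher and the other genes lower. Their ratios of Pdpn-adjacent to SMA-adjacent means were 1.01 for Lamb2, 1.09 for Nid1, 1.18 for Nid2 and 1.05 for Agrn. For none of the 10 were the groups apart in CPM. The share of all probes with every Pdpn-adjacent region under the SMA-adjacent range was 0.391%, and with every one over it 0.446%. Over the 8 deeper regions these shares were 2.02% and 2.39%, again with 0 members. The smallest adjusted p of any member over every fit run with edgeR, DESeq2 and limma-voom that gave one was 0.295, for Lamc1 without SMA-adjacent region 5. These p-values share the limit of regions from the same mouse.

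**Figure D2:**
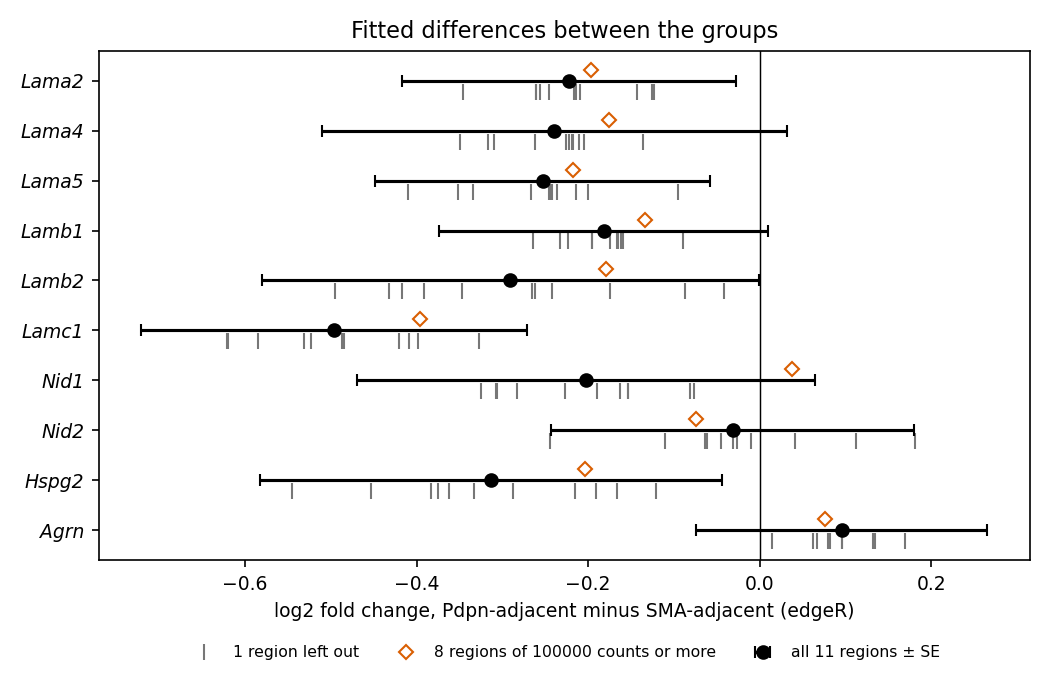
Fitted log2 fold change (Pdpn-adjacent minus SMA-adjacent) of each gene: black points with SE for all 11 regions, grey ticks for fits without 1 region, and open diamonds for the 8 regions of at least 100000 counts. Agrn lies right of 0 and Lamc1 farthest left at -0.50; the ticks of Nid2 and the diamond of Nid1 cross 0.

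Ratios of 2 genes within a region need no library scaling, and 5 of them were compared between the groups. The log2 ratio of Lama4 to Lama2 counts lay between 0.59 and 1.15 in all regions but region 2, where both counts were 1. Its means were 0.76 ± 0.41 (SD, n = 6) in Pdpn-adjacent regions, against 0.89 ± 0.24 (SD, n = 5) in SMA-adjacent ones (exact permutation p = 0.597, or 0.747 when adjusted over the 5 ratios). That of Lama5 to Lama2 was 0.13 ± 0.29 and 0.28 ± 0.38, and that of Lamb2 to Lamb1 0.14 ± 0.48 and 0.22 ± 0.48 (exact permutation adjusted p = 0.747 and 0.781). The Lamb2 to Lamb1 ratio was highest in Pdpn-adjacent region 7 (raw counts of 26 and 13) and SMA-adjacent region 9, with log2 ratios of 1.00 and 0.93. The log2 ratio of Nid2 to Nid1 lay between -1.64 and -1.04 in every SMA-adjacent region, while Pdpn-adjacent regions ran from -3.27 to 1.32 (difference 0.76, exact permutation p = 0.340, adjusted p = 0.747). The top of that range came from regions 3 and 11, with counts of 5 and 2 for Nid2 and 2 and 1 for Nid1, and without regions 2, 3 and 11 the difference was -0.51. It was 1.32 without Pdpn-adjacent region 7 (exact permutation p = 0.0317, adjusted p = 0.159 over the 5 ratios), 0.40 without region 3 and 0.46 without region 11. Nid2 was above the floor in 0 of the 5 SMA-adjacent regions, so its narrow raw ratio there has a numerator near background. With background subtracted over the 8 deeper regions, the Nid2 to Nid1 log2 ratio ran from -4.90 to -1.79 in SMA-adjacent regions. In Pdpn-adjacent regions it then ran from -4.40 to -1.04. Agrn to Hspg2 differed by 0.68 between the groups (0.28 ± 0.87, SD, n = 6, and -0.39 ± 0.50, SD, n = 5; exact permutation p = 0.165, adjusted p = 0.747). Without the 3 shallow regions that difference was 0.10, and without region 3 alone it was 0.42. In these tests too, regions that share a mouse were treated as independent.

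**Figure D3:**
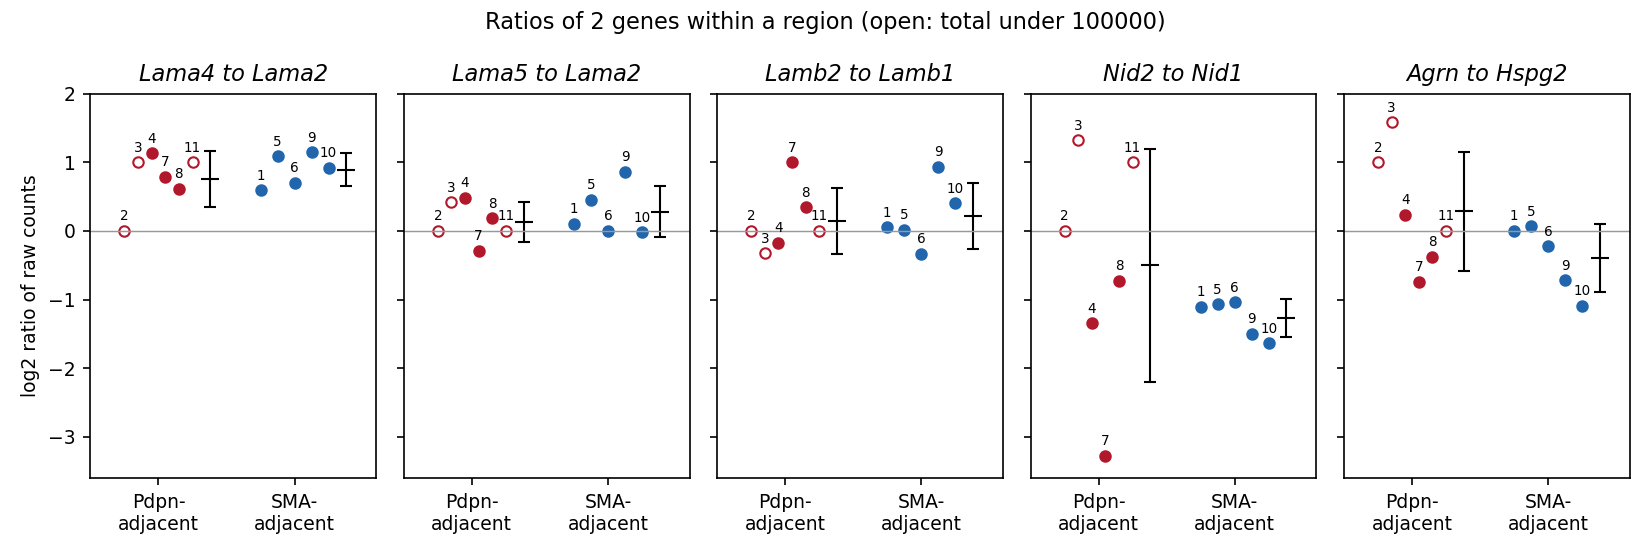
Log2 ratio of the raw counts of 2 genes in each region, with region numbers, open circles for regions under 100000 counts, and the group mean and SD as bars (n = 6 and n = 5). The Nid2 to Nid1 ratio of raw counts runs from -1.64 to -1.04 in SMA-adjacent regions and from -3.27 to 1.32 in Pdpn-adjacent ones. Nid2 was above the floor in 0 of the 5 SMA-adjacent regions. With background subtracted, the SMA-adjacent ratio runs from -4.90 to -1.79.

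The summed level of the 10 genes moved with the share of a region's counts that lay above background, in both groups. CPM includes background counts, so genes read above background tend to rise with that share by construction. In region 2 the sum rests on 11 raw counts, with 9 of the 10 genes at a count of 1. The sum was 413, 469, 644, 736, 821 and 548 CPM in Pdpn-adjacent regions 2, 3, 4, 7, 8 and 11, where the share above background was 6.00%, 18.8%, 26.0%, 30.0%, 41.4% and 22.2%. It was 812, 584, 658, 909 and 968 CPM in SMA-adjacent regions 1, 5, 6, 9 and 10, where that share was 34.1%, 21.6%, 31.7%, 39.8% and 41.6%. The lowest SMA-adjacent sum, in region 5, was below that of Pdpn-adjacent regions 4, 7 and 8, and region 5 also had the lowest SMA-adjacent share. With the mean negative-probe count subtracted from each probe and the remainder rescaled to CPM, the sum was 870, 938 and 1173 in Pdpn-adjacent regions 4, 7 and 8, against 1217, 753, 813, 1288 and 1362 in SMA-adjacent regions 1, 5, 6, 9 and 10. The groups overlapped on that scale as well. In the edgeR fit with background subtracted, over the 8 deeper regions, Lamc1 stood at -0.77 and Lama2 at -0.69, and Nid1 and Nid2 at 0.07 and 0.19, all with an adjusted p of 1.00. A further edgeR fit took the negative-probe level relative to total counts as a covariate. It called 22 probes higher and 22 lower, with no member among them. Beyond these 2 fits, the part of the background share in the differences between groups was not tested.

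**Figure D4:**
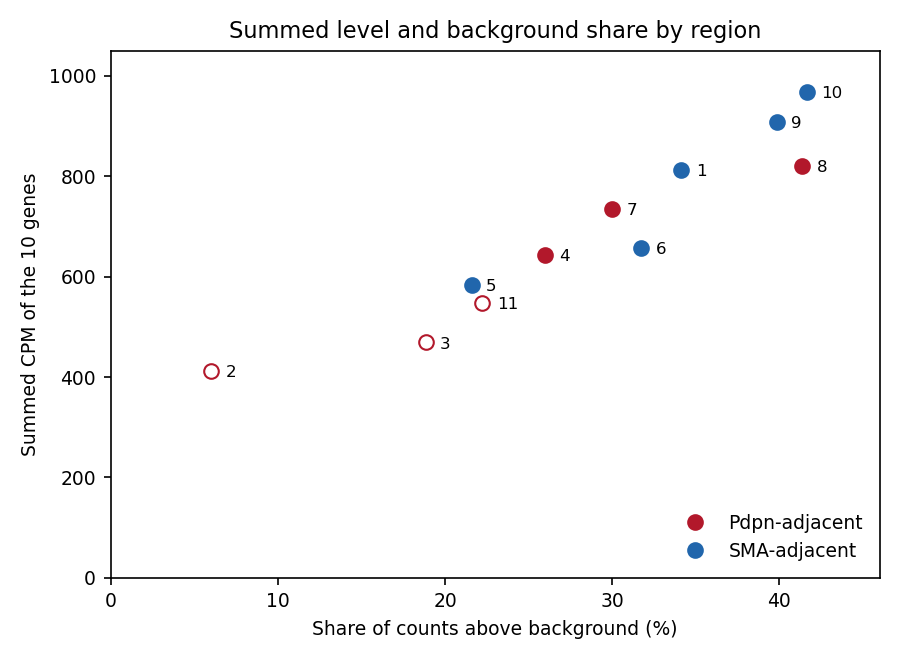
Summed CPM of the 10 genes (y axis) against the share of counts above the negative-probe background in percent (x axis), 1 point per region with its number, open circles for regions under 100000 counts. Points of both groups lie along 1 rising band, from region 2 at 413 CPM and 6.00% to region 10 at 968 CPM and 41.6%. CPM includes background counts, and region 2 holds 11 raw counts over the 10 genes.

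Markers of the cells that carry basement membranes also differed between regions. The 8 smooth muscle markers summed to 375 to 1136 CPM in Pdpn-adjacent and 1247 to 5895 CPM in SMA-adjacent regions, highest in region 9, which also had the highest Lamb2 and Lama5. Lama4, Lamb1, Lamc1, Nid1 and Hspg2 were highest in region 10, where the smooth muscle sum was 2947 CPM. Of all regions, region 10 also had the highest fibroblast (3722 CPM), blood endothelial (878 CPM), adipocyte (8299 CPM) and macrophage (476 CPM) sums. The other marker lists peaked elsewhere. Its share of counts above background, 41.6%, was the highest too. Lama2 was highest in region 1, Nid2 in region 8 and Agrn in region 11, the last from a raw count of only 3. Of the 8 smooth muscle markers, 1 to 5 were above the floor in Pdpn-adjacent regions, against 4 to 8 in SMA-adjacent regions. Smooth muscle actin was stained to choose the regions, so that list is not independent of the groups. The 7 blood endothelial markers summed to 263 to 578 CPM in Pdpn-adjacent and 473 to 878 CPM in SMA-adjacent regions, and the 6 pericyte markers to 274 to 545 and 353 to 509 CPM. The 5 adipocyte markers, of cells with a basement membrane of their own, summed to 188 to 6924 and 3558 to 8299 CPM. For skeletal muscle, 6 markers summed to 228 to 19948 CPM in Pdpn-adjacent and 213 to 2501 CPM in SMA-adjacent regions. Region 7, with the highest Pdpn-adjacent Lamb2 and Nid1, held 8307 CPM of the skeletal muscle markers. It also had the highest Pdpn-adjacent sums of smooth muscle (1136 CPM), fibroblast (1909 CPM), pericyte (545 CPM) and adipocyte (6924 CPM) markers. Blood endothelial and macrophage sums were highest in region 8 of that group. Region 3, with 19948 CPM of the skeletal muscle markers, had Lamb2 at 49.4 CPM. That value rests on a raw count of 4, with an exact Poisson 95% interval of 13.5 to 126 CPM, too wide to set against region 7. The 6 myoepithelial markers reached 925 CPM in region 11 and ran from 222 to 346 CPM in the other Pdpn-adjacent and 239 to 287 CPM in the SMA-adjacent regions. The 8 luminal epithelial markers summed to 343 to 805 CPM in Pdpn-adjacent regions, against 316 to 428 CPM in SMA-adjacent ones. All 8 were higher at an unadjusted edgeR p under 0.05, as were 566 of all 19935 probes. Of the 8, 1 passed the threshold, the casein gene Csn3 (edgeR adjusted p = 0.0413), against 0.0100% of all probes called higher. The luminal sum was highest in regions 4 and 8, at 805 and 698 CPM with 6 and 5 markers above the floor. In the other Pdpn-adjacent regions it was 343 to 444 CPM, with 0 to 2 above the floor. SMA-adjacent regions also had 0 to 2 above it. The 5 macrophage markers summed to 188 to 399 CPM in Pdpn-adjacent regions, against 365 to 476 CPM in SMA-adjacent ones. Of markers of Schwann cells, Sox10 and Prx were higher at an unadjusted edgeR p under 0.05 (edgeR adjusted p = 0.673 and 0.694), and Mbp had a log2 fold change of -0.05 ± 0.39 SE with an adjusted p of 1.00. Shared mice limit these p-values too. The part of these cells in the levels of the 10 genes was not tested.

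Of other laminin chains, Lama3 and Lamb3 were near background and above the floor in 0 of 11 regions. Lama3, an epithelial alpha chain, averaged 1.16 ± 0.380 times background (SD, n = 6) in Pdpn-adjacent regions, against 1.32 ± 0.100 times (SD, n = 5) in SMA-adjacent ones. Its edgeR log2 fold change was -0.14 ± 0.15 SE with an adjusted p of 1.00. Lamb3, an epithelial beta chain, averaged 0.861 ± 0.279 and 0.962 ± 0.0655 times background, and its log2 fold change was 0.13 ± 0.15 SE (edgeR adjusted p = 1.00). Shared mice limit these p-values as well.

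Genes that work with the 10 also gave no calls. Of 18 other basement membrane genes 0 passed the edgeR threshold in either direction, with a median log2 fold change of -0.20 against 0.01 over all probes. Col18a1, whose product is a basement membrane collagen with heparan sulfate chains, averaged 49.1 ± 15.7 CPM (SD, n = 6) in Pdpn-adjacent regions, against 90.7 ± 25.7 CPM (SD, n = 5) in SMA-adjacent ones (edgeR adjusted p = 0.602). Of the 6 Pdpn-adjacent values, 5 were under the SMA-adjacent range, a pattern not counted over all probes. Those 5 include the shallow regions 2, 3 and 11, where 1 count stands at 12.3 to 37.5 CPM. Among the 3 deeper Pdpn-adjacent regions 2 were under it. Smoc2, a secreted calcium-binding matrix protein, averaged 24.1 ± 10.8 and 37.6 ± 9.77 CPM (edgeR adjusted p = 0.589), at most 1.75 times background. Among 14 receptors 0 passed in either direction, with a median of -0.08. Bcam, a receptor for the laminin alpha-5 chain, averaged 53.3 ± 19.7 CPM (SD, n = 6) and 84.7 ± 28.2 CPM (SD, n = 5), and edgeR fitted -0.84 ± 0.26 SE on the log2 scale with an adjusted p of 0.476. Itgb1, the beta-1 integrin chain shared by most laminin receptors, averaged 79.8 ± 22.1 and 136 ± 49.5 CPM, where edgeR fitted -0.77 ± 0.27 SE on the log2 scale with an adjusted p of 0.647. Among 11 genes that build or edit heparan sulfate 0 passed in either direction, with a median of -0.04. Sulf1, a sulfatase that trims sulfate groups from heparan sulfate outside the cell, averaged 43.7 ± 15.3 and 57.4 ± 8.64 CPM (edgeR adjusted p = 0.729), and its 3 values in the deeper Pdpn-adjacent regions were under the SMA-adjacent range, which over those regions held for 2.02% of all probes. Extl3, an enzyme that starts heparan sulfate chains, averaged 44.8 ± 16.3 and 77.4 ± 20.4 CPM (edgeR adjusted p = 0.888). These p-values can likewise be too small, with mice shared between regions.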

How the data were processed

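The deposited values are raw counts of 11 regions, 1 per probe, taken to be without normalization because they are whole numbers with unequal totals, the lowest being 1. Whether 1 was added to counts, and the steps from reads to counts, are not given in the sources used here. The file headers place probes on GRCm38.p6, and gene spans come from the RefSeq table of that build, where all 10 genes matched. Library sizes and tests used none of the 210 negative-control probes. Of 19965 endogenous probes, 19935 passed filterByExpr of edgeR 4.0.16 (R 4.3.3), including all 10 members. They were tested with TMM scaling and the quasi-likelihood test, two-sided, with Benjamini-Hochberg adjustment over all probes and a threshold of 0.05. SEs were derived from that test's p-values. Exact permutation tests used log2 CPM with a prior count of 2 and all 462 ways to choose the groups (smallest possible p 0.00216), or 56 ways (smallest 0.0179) over the 8 deeper regions. The fit and the permutation test were tested on simulated data. Poisson intervals cover counting error only. The members and lists were chosen with earlier results of these data known. All members are named, and of each related list the 2 genes of smallest p. Alternatives changed the regions, filter, scaling, background, covariate or tool (DESeq2 1.42.0, limma-voom of limma 3.58.1). Results of 3 listed genes, and of lists that need them, are not reported here.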

Additional observations from a re-analysis of the deposited data

How the results depend on the processing

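No member was called under any alternative that gave it an adjusted p, and DESeq2 gave none for Lama2, Lama5, Lamc1 and Nid2. The counts of calls, 2 higher and 0 lower, moved to 1 and 0 without the regions under 100000 counts and with negative-probe scaling. They moved to 1 and 1 with total counts only, 0 and 0 with background subtracted and with limma-voom, 22 and 22 with the negative-probe covariate, and 1 and 16 with DESeq2. Every setting with background subtracted also left out regions 2, 3 and 11, and that edgeR fit tested 11972 probes, so its changes are not those of subtraction alone. Leaving out 1 region gave 1 to 12 higher and 0 to 41 lower, 12 and 41 without SMA-adjacent region 5 and 12 and 1 without Pdpn-adjacent region 7. Limma-voom moved the median log2 fold change of all probes to 0.14, and with it Lamb2 stood at 0.075 and Hspg2 at 0.052, both reversed. Nid1 reversed to 0.037 without the regions under 100000 counts and to 0.067 with background subtracted. Nid2 reversed to 0.00648 with total counts only, 0.19 with background subtracted and 0.026 with the negative-probe covariate, and ran from -0.24 to 0.18 with 1 region left out. In log2 CPM without the shallow regions, Lamb2 reversed to 0.032 and Nid1 to 0.092, and Nid2 ran from -0.25 to 0.22 with 1 region left out. The ratio difference of Lamb2 to Lamb1 reversed to 0.18 without the shallow regions and 0.39 with background subtracted, and ran from -0.24 to 0.11 with 1 region left out. Nid2 to Nid1 reversed to -0.51 and -0.15 in the same settings and ran from 0.40 to 1.32 with 1 region left out, Agrn to Hspg2 ran from 0.42 to 0.88, and Lama4 to Lama2 ran from -0.21 to 0.017 with 1 region left out. After subtraction Lama2 in region 5 is left at about 1 count, so ratios to it are unstable. The cause of these changes was not tested. No paired analysis was possible because the groups share no region number and the labels tie no region to a mouse. Depth limits regions 2, 3 and 11 most, where 1 count stands at 12.3 to 37.5 CPM.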
